A study of Mus musculus with 6 samples.

Results

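Macrophage and myeloid genes of the mouse thyroid were taken as a list of 38 symbols that mark leukocytes, macrophages, monocytes, dendritic cells and granulocytes. Of these, 37 were among the 21878 genes of the count table and 36 passed the filter on low counts. The rule uses no measured value of these libraries, although the list was drawn up with earlier results of these data known. Marco, a scavenger receptor, had 0 or 1 counts in every library and was not tested.

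RNA-seq was performed on thyroid glands of 12-week-old female mice, with 3 libraries from Thy-Tet1+/+ mice (wild-type controls) and 3 labelled Thy-Tet1-/-. In the latter, floxed Tet1, which encodes a 5-methylcytosine dioxygenase, is deleted by a Cre recombinase that acts in thyroid follicular epithelial cells, so macrophages, which derive from other precursors, are not its target. The comparison asks which transcripts of the whole gland differ between the genotypes, and here it concerns cells that lie between and around the follicles.

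Macrophages are resident phagocytes that clear dying cells and debris, present antigen and secrete growth factors. Their survival depends on signalling through the receptor Csf1r, and their identity on the transcription factor PU.1, encoded by Spi1. Tissue macrophages that carry Lyve1, Folr2, Cd163, Mrc1 and Timd4 are commonly found along vessels and are largely maintained within the tissue, whereas Ccr2 marks monocytes and cells recently derived from them.

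The libraries held 8867683 to 19950898 counts, the lowest total being that of Thy-Tet1+/+ 1. Levels below are counts per 1000000 (CPM) of libraries scaled with edgeR's TMM factors. By the raw library totals, 3 counts correspond to between 0.15 and 0.338 CPM. On the TMM scale, 3 counts of Timd4 in Thy-Tet1+/+ 1 came to 0.356 CPM. Tet1 itself measured 5.69, 3.80 and 3.44 CPM in Thy-Tet1+/+ 1, 2 and 3, and 9.37, 9.60 and 12.2 CPM in the libraries labelled Thy-Tet1-/- 1, 2 and 3. Its log2 fold change was 1.28 (SE 0.27), a direction opposite to the label, so each direction given here is that of libraries labelled Thy-Tet1-/- against those labelled Thy-Tet1+/+. Transcripts of 5 thymocyte genes (Rag1, Dntt, Ptcra, Cd8b1 and Themis) summed to 84.9, 0.749 and 0.777 CPM in the Thy-Tet1+/+ libraries and to 0.490, 0 and 356 CPM in those labelled Thy-Tet1-/-. Thy-Tet1+/+ 1 and labelled Thy-Tet1-/- 3 therefore stood apart, and the called members are also given without them, in a fit without both that was added after seeing the data. The 10 macrophage markers fixed as a check of cell type (Adgre1, Cd68, Csf1r, C1qa, C1qb, C1qc, Mrc1, Tyrobp, Fcer1g and Aif1) had counts in all 6 libraries.

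To show what these genes look like in the genome, RefSeq promoter windows (GRCm38.p6, 250 bases before to 50 after the start) were read for 29 members, which had 33 windows. The letters GAGGAA, the core of a PU.1-type site, or their complement TTCCTC, stood in 16 of the 33 windows (48.5%) and in 9289 of 32851 windows of all genes (28.3%). By gene, 15 of the 29 members had a match. Some windows of the same gene overlap, and those of Fcgr3 hold the same match. A match is a description of letters and not a binding site. The windows of C1qb and C1qc are shown because these neighbouring genes had nearly parallel levels, that of Itgam because it held 3 matches, and that of Ccr2 because it was the only called member with a window. Each is written 5′ to 3′ on the strand of its gene, with matches in capitals.
C1qb (chr4:136886151-136886450, minus strand): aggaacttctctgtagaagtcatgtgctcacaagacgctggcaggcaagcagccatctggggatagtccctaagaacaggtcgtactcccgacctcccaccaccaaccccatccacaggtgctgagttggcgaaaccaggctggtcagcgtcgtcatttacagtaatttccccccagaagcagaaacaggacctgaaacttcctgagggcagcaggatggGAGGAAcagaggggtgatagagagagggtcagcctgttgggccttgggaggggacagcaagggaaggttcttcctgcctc
C1qc (chr4:136892865-136893164, minus strand): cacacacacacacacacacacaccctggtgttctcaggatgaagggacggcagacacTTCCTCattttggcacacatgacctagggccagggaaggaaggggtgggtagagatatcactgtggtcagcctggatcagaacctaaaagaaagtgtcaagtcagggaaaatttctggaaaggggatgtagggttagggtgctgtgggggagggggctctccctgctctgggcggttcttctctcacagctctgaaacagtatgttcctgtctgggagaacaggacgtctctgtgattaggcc
Itgam (chr7:128062390-128062689, plus strand): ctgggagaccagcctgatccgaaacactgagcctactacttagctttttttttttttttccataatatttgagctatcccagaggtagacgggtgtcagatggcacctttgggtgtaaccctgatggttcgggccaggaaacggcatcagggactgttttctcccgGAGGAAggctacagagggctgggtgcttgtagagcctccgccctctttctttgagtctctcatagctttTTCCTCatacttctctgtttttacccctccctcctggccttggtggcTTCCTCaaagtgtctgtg
Ccr2 (chr9:124101933-124102232, plus strand): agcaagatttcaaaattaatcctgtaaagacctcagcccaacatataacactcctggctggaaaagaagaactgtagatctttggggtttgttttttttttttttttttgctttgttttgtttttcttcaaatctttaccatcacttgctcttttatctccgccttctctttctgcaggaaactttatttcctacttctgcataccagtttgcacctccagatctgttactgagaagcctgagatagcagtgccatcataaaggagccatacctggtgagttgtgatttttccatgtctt
The match began at base -30 from the start in C1qb and at base -193 in C1qc, where it lay on the opposite strand. In Itgam the matches began at bases -84, -15 and 32. The window of Ccr2 held none.

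A gene was called where it changed by more than 1.5-fold in either direction and its unadjusted p was under 0.05 in edgeR's quasi-likelihood test over all 6 libraries. Among the 36 tested members 3 were called, 2 higher (Lyve1 and Ccr2) and 1 lower (Adgre1), beside 1301 of 14143 tested genes (9.2%), of which 783 were higher (5.54%) and 518 lower (3.66%). The members' share was therefore near that of all genes. By edgeR's adjusted p under 0.05 none of the members passed, against 16 of all genes (0.113%), and 3 members had an unadjusted p under 0.05. DESeq2 gave 2 members (Ccr2 and Lyve1) and limma-voom 0 with an adjusted p under 0.05, where DESeq2 passed 1210 of the 12677 genes to which it gave a value (9.54%). Log2 fold changes were below 0 for 21 of the 36 members and for 49.9% of all tested genes, with medians of -0.23 and 0.00. In bulk tissue, fewer cells of a type and less RNA per cell cannot be told apart.

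**Figure D1:**
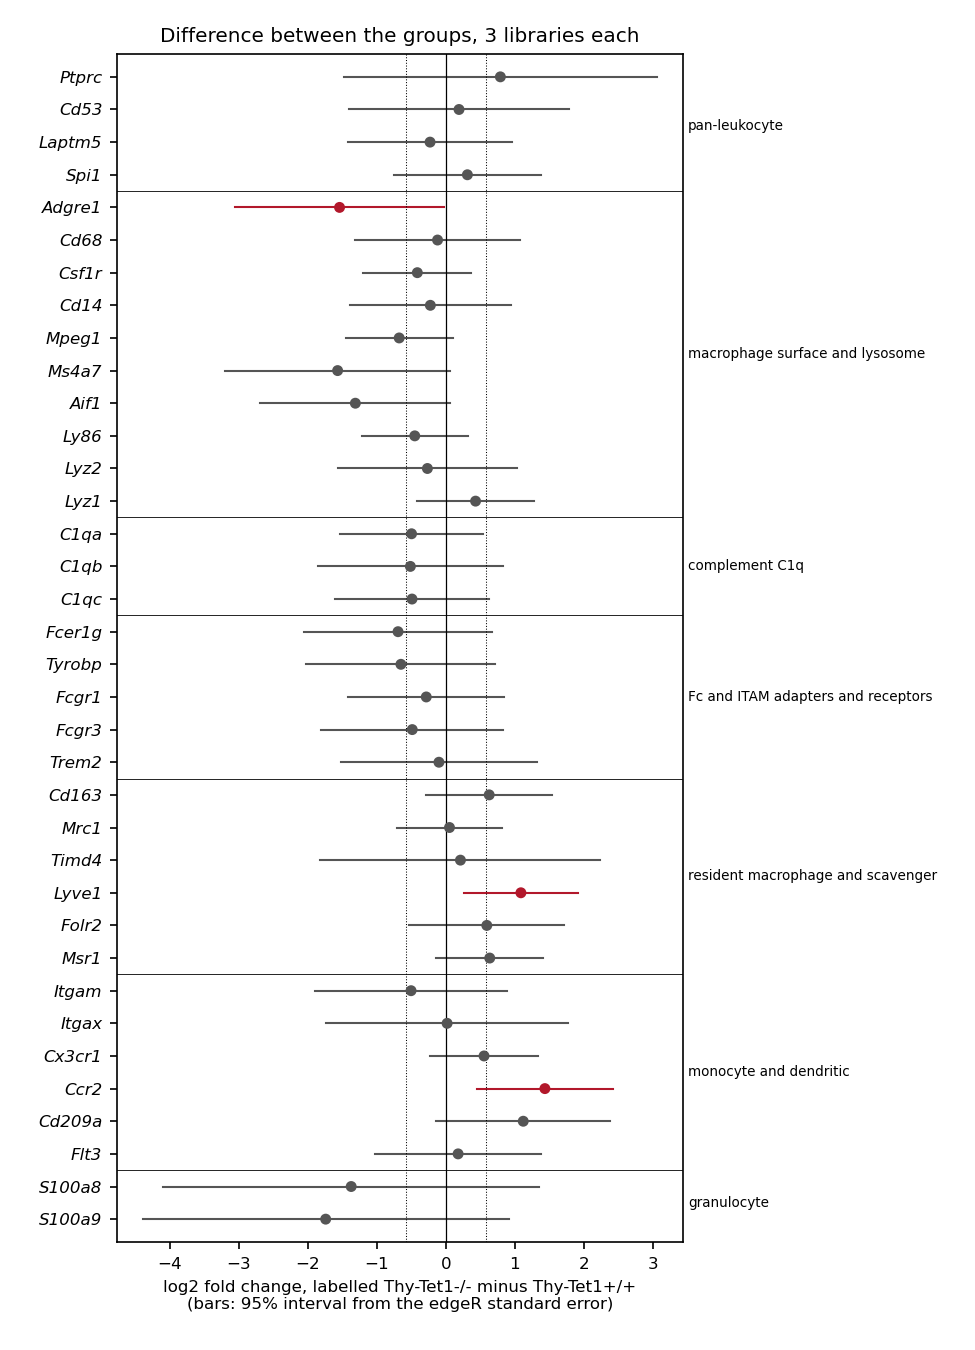
Log2 fold change (libraries labelled Thy-Tet1-/- minus Thy-Tet1+/+, n = 3 each) of the 36 tested members, with bars for the 95% interval from edgeR's standard error and dotted lines at a 1.5-fold change in either direction. Red marks the called members, Adgre1 at -1.54, Lyve1 at 1.09 and Ccr2 at 1.44.

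The general macrophage surface and lysosome genes were mostly lower in the libraries labelled Thy-Tet1-/-, with log2 fold changes below 0 for 9 of 10 tested, a median of -0.43 and 1 call. Adgre1, which encodes the macrophage surface protein F4/80 (chr17:57358691-57483527 in GRCm38), measured 4.98, 40.2 and 24.1 CPM in Thy-Tet1+/+ 1, 2 and 3. It measured 8.12, 7.94 and 7.93 CPM in the libraries labelled Thy-Tet1-/- 1, 2 and 3. The labelled libraries were almost equal and lay below Thy-Tet1+/+ 2 and 3 but above Thy-Tet1+/+ 1, so the groups overlapped. The means were 23.1 ± 17.6 and 7.99 ± 0.106 CPM (SD, n = 3 each), with a log2 fold change of -1.54 (SE 0.63, 95% interval -3.05 to -0.03, edgeR adjusted p = 0.255). Without Thy-Tet1+/+ 2 the log2 fold change was -0.88 and not called, and the call was also lost at -1.51, -1.59, -1.56 and -1.56 when Thy-Tet1+/+ 3 or labelled Thy-Tet1-/- 1, 2 or 3 was left out. It was lost too with limma-voom (-1.40), library totals (-1.35), epithelial scaling (-0.94), a replicate block (-1.16) and macrophage scaling (-0.79), whose genes include Adgre1. An adipocyte (-0.79) or thymocyte (-1.31) score as covariate also removed the call, so that 7 of 19 alternatives kept it.

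Ms4a7, a membrane protein of macrophages, and Aif1, the calcium-binding protein Iba1, had a similar arrangement without reaching the call. Ms4a7 measured 2.14, 14 and 11.8 CPM in the Thy-Tet1+/+ libraries and 2.34, 2.13 and 4.98 CPM in the labelled ones, a log2 fold change of -1.57 (SE 0.69, edgeR adjusted p = 0.279). Aif1 measured 2.02, 11.2 and 5.99 CPM against 2.45, 2.25 and 3.10 CPM, a log2 fold change of -1.31 (SE 0.58, edgeR adjusted p = 0.280). In both genes Thy-Tet1+/+ 1 lay within or below the labelled libraries while Thy-Tet1+/+ 2 and 3 lay above them. Mpeg1, which encodes the pore-forming protein perforin-2, was at 35.9, 79.5 and 51.8 CPM against 31.2, 27.0 and 46.6 CPM (log2 fold change -0.68, SE 0.33, edgeR adjusted p = 0.319).

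The remaining genes of this group were not called. Csf1r, the receptor for Csf1 and Il34, measured 31.2, 69.8 and 30.7 CPM in the Thy-Tet1+/+ libraries and 34.8, 29.9 and 34.5 CPM in the labelled ones, so that Thy-Tet1+/+ 2 alone was high (log2 fold change -0.41, SE 0.33). Its exons overlap those of Hmgxb3 on the other strand over 873 bp, and use of strand in the counting is not given in the sources used here. Exons of Folr2 and Cx3cr1 overlap antisense genes on the other strand, and those of Itgam a protein-coding gene on the same strand. The overlap is longer than that of Csf1r for Folr2 and Itgam and shorter for Cx3cr1. None of these overlapping genes is in the count table, so their reads may be counted with Folr2, Cx3cr1 and Itgam. Lyz2, the lysozyme of macrophages and granulocytes, ranged from 35.9 to 202 CPM in the Thy-Tet1+/+ libraries and from 83.8 to 124 CPM in the labelled ones (log2 fold change -0.27, SE 0.54). Its near-identical copy Lyz1 was at 2.25 to 4.17 CPM and 3.16 to 5.21 CPM (log2 fold change 0.43), and reads of the pair may be split between them. Cd68, a lysosomal glycoprotein, Cd14, the co-receptor for lipopolysaccharide, and Ly86, the partner of the receptor Cd180, had log2 fold changes of -0.12, -0.22 and -0.45. Per kilobase of exon, Lyz2 was at 83.2 CPM per kb on average over the 6 libraries, Mpeg1 at 10.5 and Adgre1 at 4.80.

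The 3 chains of complement C1q, the recognition unit of the classical pathway, which tissue macrophages secrete, are encoded side by side on chromosome 4 (C1qa at chr4:136895917-136898803, C1qb at chr4:136880129-136886187 and C1qc at chr4:136889804-136893065, GRCm38). C1qa measured 24.1, 94.2 and 55.4 CPM in Thy-Tet1+/+ 1, 2 and 3 and 38.8, 38.0 and 46.7 CPM in the labelled libraries. C1qb measured 13.5, 87.4 and 44.3 CPM and then 32.8, 32.1 and 37.4 CPM, and C1qc 14.7, 65.8 and 37.5 CPM and then 26.3, 27.4 and 30.7 CPM. The order of the Thy-Tet1+/+ libraries was the same for each chain, with library 2 highest and library 1 lowest, and the labelled libraries lay between them. Log2 fold changes were -0.50 (SE 0.43), -0.51 (SE 0.56) and -0.49 (SE 0.47), with edgeR adjusted p = 0.583, 0.670 and 0.619. The ratio of C1qc to C1qa was 0.611, 0.698 and 0.677 in Thy-Tet1+/+ 1, 2 and 3, against 0.677, 0.722 and 0.658 in the labelled libraries. The ratio of C1qb to C1qa was 0.562 in Thy-Tet1+/+ 1 and between 0.800 and 0.927 in the other libraries. Per kilobase of exon the mean levels were 47.6 (C1qa), 37.9 (C1qb) and 17.5 (C1qc) CPM per kb.

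Fc receptors and the adapters that signal through immunoreceptor tyrosine-based activation motifs (ITAM) had the order of Thy-Tet1+/+ libraries seen for C1q. The labelled libraries lay between Thy-Tet1+/+ 1 and 2 except for Fcgr1. For that gene labelled Thy-Tet1-/- 2, at 1.30 CPM, lay below Thy-Tet1+/+ 1, at 1.78 CPM. Log2 fold changes were below 0 for 5 of 5, with a median of -0.49 and 0 calls in edgeR, 0 members with an unadjusted p under 0.05. Tyrobp, the adapter DAP12, measured 3.44, 20.7 and 10.3 CPM in Thy-Tet1+/+ 1, 2 and 3 and 7.84, 5.69 and 8.54 CPM in the labelled libraries (log2 fold change -0.65, SE 0.58). Fcer1g, the shared gamma chain, was at -0.69, Fcgr3, a low-affinity receptor for immunoglobulin G, at -0.49, Fcgr1, the high-affinity receptor, at -0.28, and Trem2, a lipid-sensing receptor that pairs with Tyrobp, at -0.10. Fcgr3 shares long stretches of sequence with Fcgr2b, so its counts are less certain.

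Genes of resident and scavenging macrophages lay on the other side of 0. All 6 tested were above 0, with a median log2 fold change of 0.61 and 1 call, Lyve1. Lyve1, a hyaluronan receptor (chr7:110850607-110863239, GRCm38), measured 5.34, 10.8 and 4.94 CPM in Thy-Tet1+/+ 1, 2 and 3 and 12.4, 18.1 and 14.6 CPM in the labelled libraries. Every labelled library lay above every Thy-Tet1+/+ library. The means were 7.03 ± 3.28 and 15.0 ± 2.91 CPM (SD, n = 3 each), and the log2 fold change was 1.09 (SE 0.35, 95% interval 0.26 to 1.91, edgeR adjusted p = 0.175). The call was lost without Thy-Tet1+/+ 1 (0.93), without Thy-Tet1+/+ 3 (0.88), without labelled Thy-Tet1-/- 2 (0.92), without both libraries with thymocyte genes (0.95), with an adipocyte score as covariate (1.15) and with macrophage scaling (1.45). Lyve1 is also expressed by lymphatic endothelium, whose 5 markers (Prox1, Flt4, Pdpn, Ccl21a and Reln) summed to 47.2 to 52.4 CPM in the Thy-Tet1+/+ libraries and to 50.6, 85.3 and 53.7 CPM in the labelled ones, none of them at 0 in any library. Their part in the result was not tested.

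Msr1, scavenger receptor A, was the only other member of this group whose libraries did not overlap. It measured 1.54, 2.25 and 1.89 CPM in the Thy-Tet1+/+ libraries and 2.89, 2.49 and 3.51 CPM in the labelled ones, a log2 fold change of 0.64 (SE 0.33, edgeR adjusted p = 0.345) that was not called. Cd163, the haemoglobin-haptoglobin receptor, measured 17.3, 24.6 and 7.66 CPM and then 27.0, 23.9 and 25.8 CPM (log2 fold change 0.63, SE 0.38, edgeR adjusted p = 0.425). Folr2, folate receptor beta, measured 2.02, 7.70 and 3.55 CPM and then 6.59, 6.10 and 7.57 CPM (log2 fold change 0.59, SE 0.47, edgeR adjusted p = 0.545). In these genes the labelled libraries lay near the top of the Thy-Tet1+/+ range or above it. Mrc1, the mannose receptor CD206, was at 0.05 on the log2 scale and Timd4, a phosphatidylserine receptor, at 0.21, with 0.356, 4.33 and 0.666 CPM in the Thy-Tet1+/+ libraries and 2.18, 1.60 and 2.59 CPM in the labelled ones for Timd4. Over all members, the groups did not overlap in 3 of 36 tested (Lyve1, Msr1 and Ccr2, 8.33%), each of them higher, against 26.8% of all tested genes (12.5% higher and 14.3% lower).

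The resident genes were also set against Adgre1 within each library. The ratio of Lyve1 to Adgre1 CPM was 1.07, 0.269 and 0.205 in Thy-Tet1+/+ 1, 2 and 3 and 1.52, 2.28 and 1.84 in the labelled libraries. The ratio of Folr2 to Adgre1 was 0.405, 0.191 and 0.147, and then 0.812, 0.769 and 0.955. For these ratios the groups did not overlap, and Thy-Tet1+/+ 1 was nearest to the labelled libraries. The ratio of Cd163 to Adgre1 was 3.48, 0.612 and 0.317, and then 3.32, 3.01 and 3.25, so that Thy-Tet1+/+ 1 lay above the labelled libraries. The ratio of Mrc1 to Adgre1 was 3.26, 0.843 and 0.639, and then 2.48, 2.90 and 3.16, with Thy-Tet1+/+ 1 again the highest. The ratios were formed after the values of the members were seen and are descriptions. The ratio of Folr2 to Adgre1 also carries the limit on overlapping exons given above for Folr2.

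**Figure D2:**
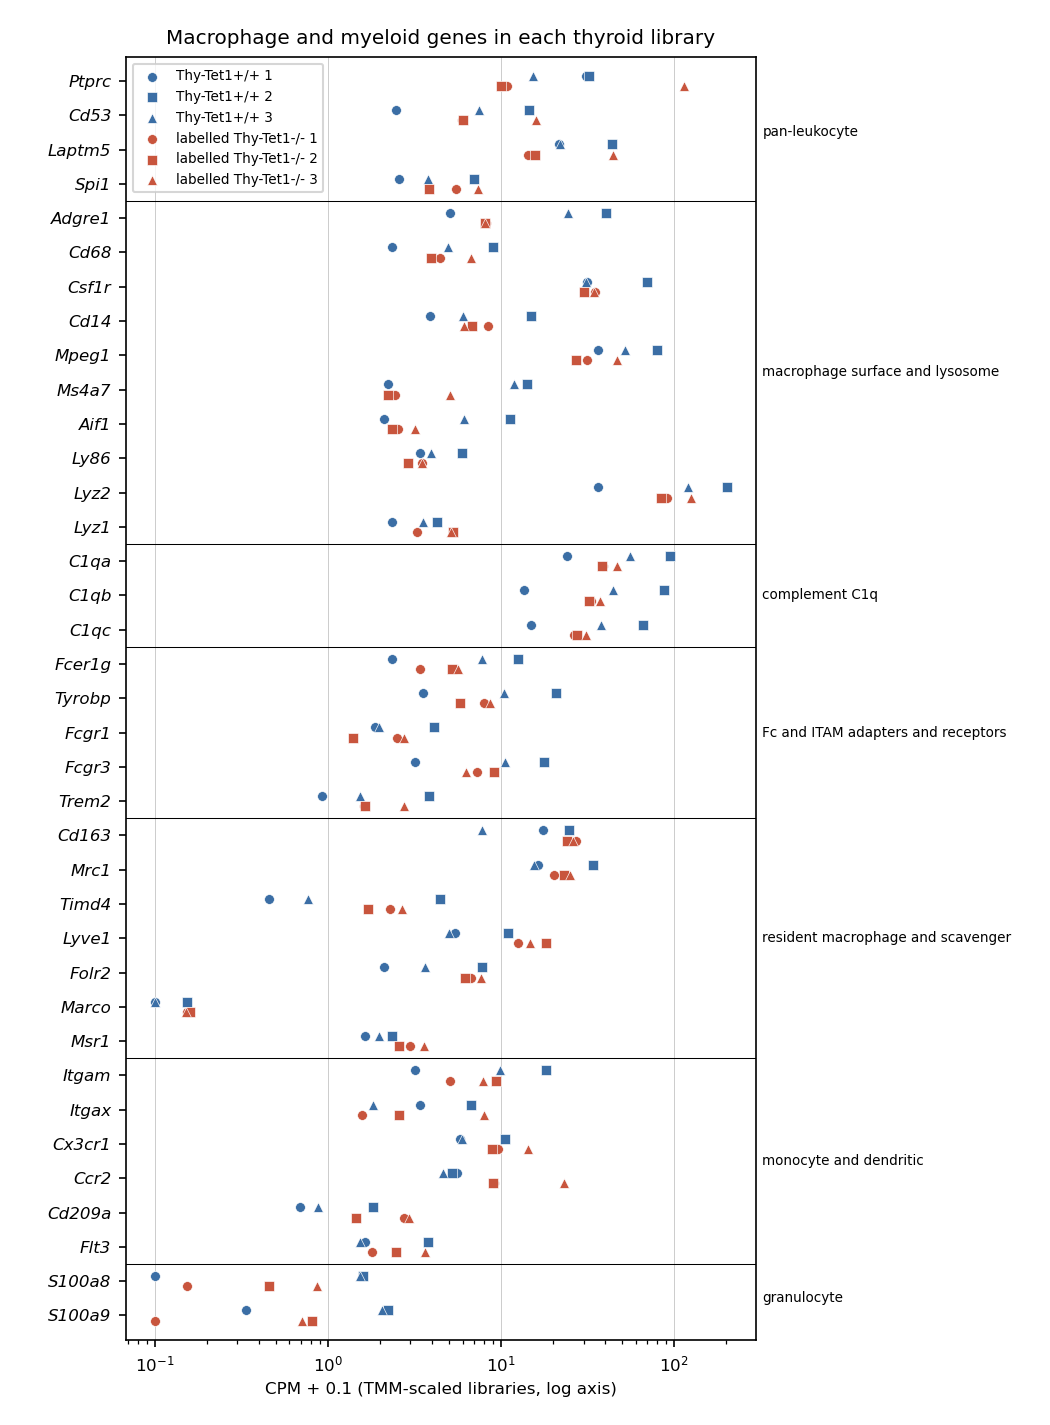
Level of each of the 37 members in each library, in CPM with a small offset on a log axis, grouped by role (blue, Thy-Tet1+/+; red, labelled Thy-Tet1-/-; symbols, library number). Thy-Tet1+/+ 2 (blue squares) and 1 (blue circles) mark the ends of many rows, as for C1qb at 87.4 and 13.5 CPM. In most rows the red symbols lie closer together than the blue, as for Adgre1 at 7.93 to 8.12 CPM. For Ptprc they spread from 9.89 to 114 CPM.

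Among monocyte and dendritic cell genes, 5 of 6 had log2 fold changes above 0, with a median of 0.37 and 1 call. Ccr2, the chemokine receptor by which monocytes leave the bone marrow and enter tissue (chr9:124101950-124113557, GRCm38), measured 5.46, 5.13 and 4.49 CPM in Thy-Tet1+/+ 1, 2 and 3 and 8.99, 8.83 and 22.9 CPM in the labelled libraries. The groups did not overlap, and labelled Thy-Tet1-/- 3 was far above the other libraries. The means were 5.03 ± 0.490 and 13.6 ± 8.09 CPM (SD, n = 3 each), and the log2 fold change was 1.44 (SE 0.42, 95% interval 0.45 to 2.42, edgeR adjusted p = 0.152). Without labelled Thy-Tet1-/- 3 it was 0.82, and without both libraries that held thymocyte genes 0.89, each of them called. It was called in 17 of the 19 alternatives tried, and not with a skeletal muscle score as covariate (0.90) or with libraries scaled to macrophage genes (1.47). The 7 skeletal muscle markers (Acta1, Ckm, Myh1, Myh4, Tnnt3, Mylpf and Tnni2) varied widely. They summed to 5954, 708 and 3620 CPM in the Thy-Tet1+/+ libraries and to 92.0, 6550 and 15.2 CPM in the labelled ones. The part of muscle in the result was not tested. T cells and their precursors can also express Ccr2, and 8 T cell genes summed to 98.6, 21.5 and 13.8 CPM in the Thy-Tet1+/+ libraries and to 12.4, 9.89 and 401 CPM in the labelled ones, where 2 and 1 of the 8 were at 0 in labelled Thy-Tet1-/- 1 and 2. Their part in the result was not tested.

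Cx3cr1, the fractalkine receptor, measured 5.69, 10.4 and 5.88 CPM in the Thy-Tet1+/+ libraries and 9.53, 8.71 and 14.2 CPM in the labelled ones (log2 fold change 0.55, SE 0.33, edgeR adjusted p = 0.411). Cd209a, the C-type lectin DC-SIGN of monocyte-derived dendritic cells, measured 0.593, 1.71 and 0.777 CPM and then 2.67, 1.36 and 2.85 CPM (log2 fold change 1.12, SE 0.53, edgeR adjusted p = 0.311). Neither gene was called, and in both Thy-Tet1+/+ 2 overlapped the labelled libraries. Flt3, the receptor that drives dendritic cell development, was at 0.18, Itgax, the integrin CD11c, at 0.02 and Itgam, the integrin CD11b, at -0.50. Itgam measured 3.08, 18.1 and 9.77 CPM in the Thy-Tet1+/+ libraries, the order of these libraries seen for C1q. It measured 4.96, 9.30 and 7.77 CPM in the labelled ones, where the order was not that of C1q. The ratio of Ccr2 to Csf1r was 0.175, 0.0735 and 0.146 in Thy-Tet1+/+ 1, 2 and 3 and 0.259, 0.296 and 0.664 in the labelled libraries.

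The 4 genes listed as pan-leukocyte include Spi1, introduced above as a factor of macrophage identity. All were highest in labelled Thy-Tet1-/- 3, but only Ptprc lay clearly above its level in Thy-Tet1+/+ 2. Labelled Thy-Tet1-/- 3 also held the most thymocyte transcripts. Thy-Tet1+/+ 1, which held them too, was not the highest Thy-Tet1+/+ library for any of the 4. Ptprc, the phosphatase CD45, measured 30.7, 32.2 and 15.1 CPM in the Thy-Tet1+/+ libraries and 10.7, 9.89 and 114 CPM in the labelled ones, so that labelled Thy-Tet1-/- 3 was the highest and the other labelled libraries the lowest. Its log2 fold change was 0.79 (SE 0.95), and -1.34 without labelled Thy-Tet1-/- 3. Cd53, a tetraspanin, Laptm5, a lysosomal protein of blood cells, and Spi1 measured 15.9, 44.1 and 7.22 CPM in labelled Thy-Tet1-/- 3. In Thy-Tet1+/+ 2 they were close to this, at 14.3, 43.3 and 6.90 CPM. Cd53 and Spi1 had their lowest level in Thy-Tet1+/+ 1, at 2.37 and 2.49 CPM. Their log2 fold changes were 0.19, -0.23 and 0.31, and 0 of the 4 genes were called by edgeR or had an unadjusted p under 0.05.

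The calgranulins S100a8 and S100a9, which neutrophils carry in large amounts, were scarce, with no more than 3 counts in some libraries of each group. S100a8 had 0, 28 and 26 counts in Thy-Tet1+/+ 1, 2 and 3 and 1, 6 and 15 in the labelled libraries, and S100a9 had 2, 40 and 35 and then 0, 12 and 12. Thy-Tet1+/+ 2 and 3 held the most counts of both. Log2 fold changes were -1.37 (SE 1.15) and -1.74 (SE 1.11), neither of which was called.

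The spread among libraries was itself unequal between the groups. For 24 of the 36 tested members the highest level was in Thy-Tet1+/+ 2, and for 22 the lowest was in Thy-Tet1+/+ 1, whereas labelled Thy-Tet1-/- 3 was highest for 9. The highest Thy-Tet1+/+ level was 8.07 times the lowest for Adgre1, 6.46 times for C1qb and 5.63 times for Lyz2, against 1.02, 1.17 and 1.48 times in the labelled libraries. The SD of log2 CPM was smaller in the labelled libraries for 32 of 36 members (88.9%), and for 64.5% of all tested genes. The 10 macrophage markers summed to 115, 445 and 236 CPM in Thy-Tet1+/+ 1, 2 and 3 and to 179, 175 and 206 CPM in the labelled libraries. All 37 members together summed to 307.5, 986 and 541 CPM and then to 445, 436 and 704 CPM.

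**Figure D3:**
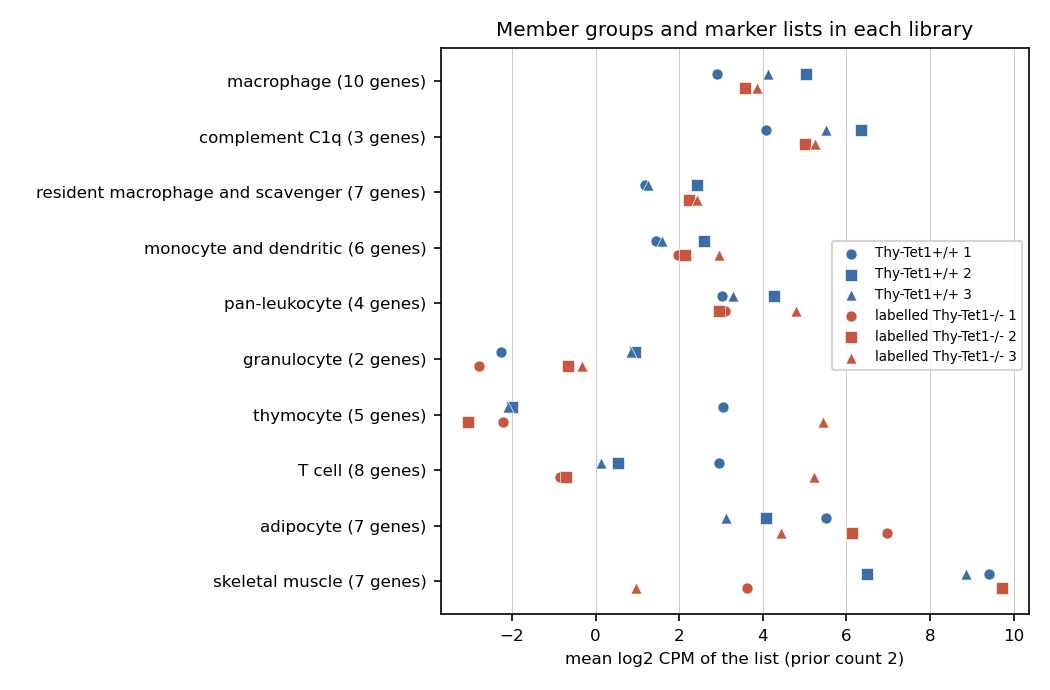
Mean log2 CPM of member groups and marker lists in each library (blue, Thy-Tet1+/+; red, labelled Thy-Tet1-/-; symbols, library number). The 3 red symbols nearly coincide for macrophage markers and C1q while the blue ones spread, and the thymocyte and T cell lists set apart Thy-Tet1+/+ 1 and labelled Thy-Tet1-/- 3.

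Because of this spread the direction of many macrophage genes rested on which Thy-Tet1+/+ library was kept. Without Thy-Tet1+/+ 1, 11 members were called, 1 higher (Ccr2) and 10 lower (Adgre1, Ms4a7, Aif1, Mpeg1, C1qa, C1qb, C1qc, Fcer1g, Tyrobp and Fcgr3), beside 4.03% of all tested genes called lower in that comparison and 5.97% higher. The C1q log2 fold changes were then -0.86 (C1qa), -0.95 (C1qb) and -0.88 (C1qc). Without Thy-Tet1+/+ 2, 7 members were called, all higher (Ccr2, Lyve1, Cd163, Folr2, Timd4, Cd209a and Cx3cr1), beside 4.95% of all tested genes higher and 4.1% lower. The C1q log2 fold changes were then 0.04, 0.22 and 0.09. The median over the members was -0.48 in the first case and 0.40 in the second.

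Leaving out labelled Thy-Tet1-/- 3 gave 6 called members, 2 higher (Ccr2 and Lyve1) and 4 lower (Ptprc, Laptm5, Mpeg1 and Ms4a7), beside 5.05% and 3.77% of all tested genes. With both libraries that held thymocyte genes left out, 14 were called, 13 of them lower and Ccr2 higher, beside 4.24% and 6.33%. That fit kept 2 libraries per group, and 0 of all tested genes had an edgeR adjusted p under 0.05. It left out Thy-Tet1+/+ 1, the lowest library for 22 of the 36 members. In each fit with 1 library left out, 0 members had an edgeR adjusted p under 0.05. The lower genes then included Adgre1 at -2.0 and Ms4a7 at -2.52. Without Thy-Tet1+/+ 3, without labelled Thy-Tet1-/- 1 and without labelled Thy-Tet1-/- 2 the counts were 1, 2 and 1, with Ccr2 among them each time, beside 9.59%, 7.48% and 10.4%. Adgre1 stayed below 0, and Lyve1, Ccr2, Cd163, Folr2 and Msr1 stayed above 0, in every one of these fits and under each scaling tried.

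**Figure D4:**
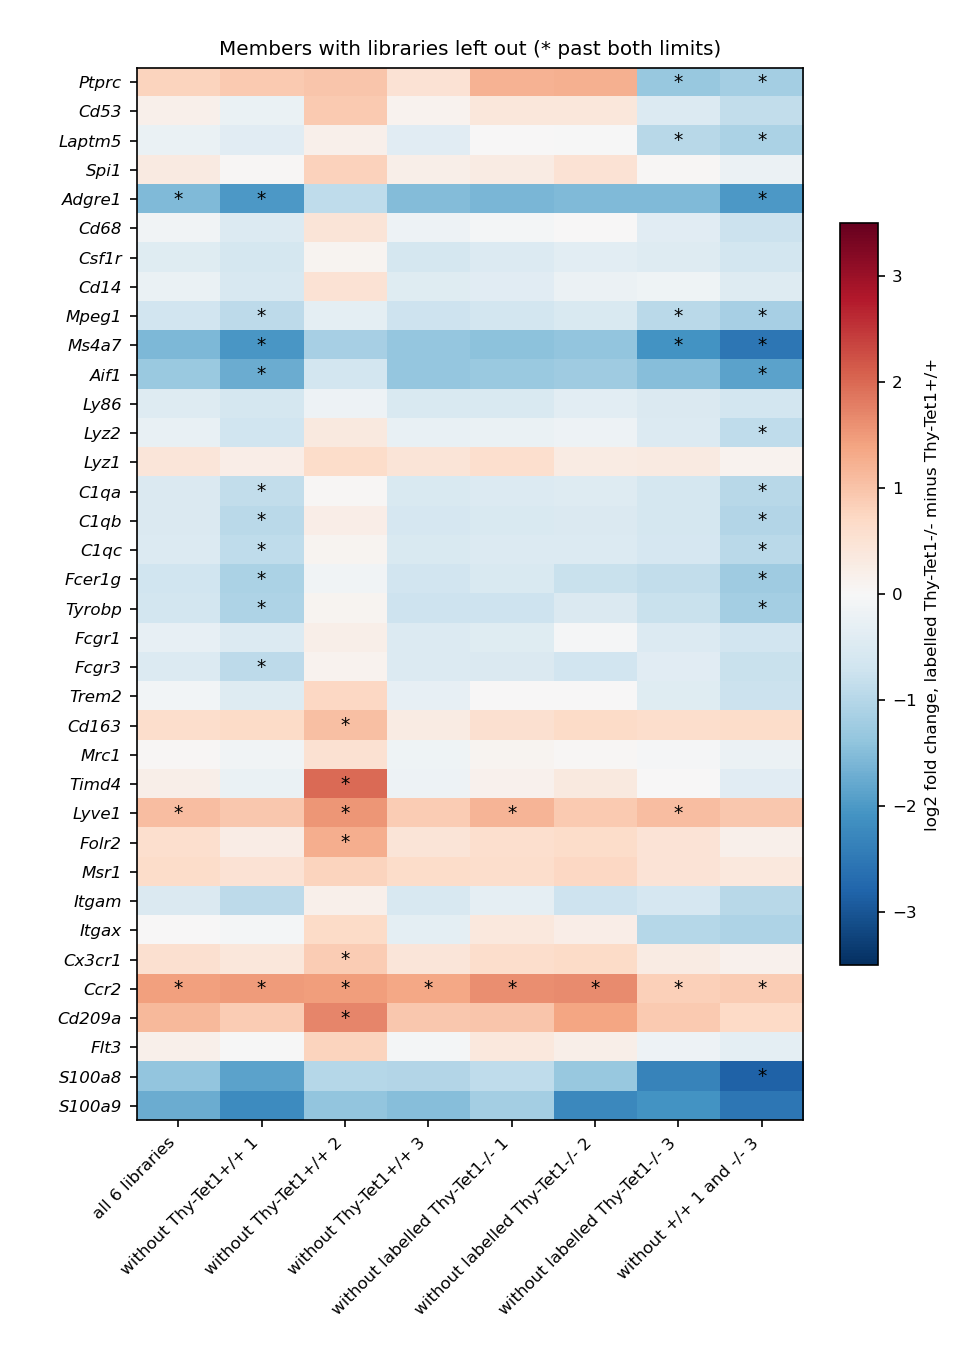
Log2 fold change of the 36 tested members with all 6 libraries and with libraries left out (colour, blue for lower and red for higher in the labelled libraries; asterisk, called). Most macrophage genes are blue without Thy-Tet1+/+ 1 and pale or red without Thy-Tet1+/+ 2, while Ccr2 is red with an asterisk in every column and Adgre1 is blue throughout.

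Of 108 further myeloid genes in the table, listed by pathway, 82 were tested and 14 called, 11 higher and 3 lower, with a median log2 fold change of 0.13. Over all tested genes 9.2% were called, 5.54% higher and 3.66% lower, which is the background for each list below as well. The groups did not overlap in 11 of the 82 (13.4%), against 26.8% of all tested genes. By list, 3 of 10 growth factors and chemokines, 7 of 24 complement and phagocytic receptors, 3 of 14 transcription factors and 1 of 8 granulocyte and mast cell genes were called, and 0 of 26 genes of ITAM, integrin and phagocyte oxidase signalling by edgeR (0 with an unadjusted p under 0.05). All 14 had edgeR adjusted p-values between 0.13 and 0.240. Without labelled Thy-Tet1-/- 3, 10 of the 14 were still called (Csf1, Flt3l, C5ar1 and Mmp9 were not), and without both libraries with thymocyte genes 9 (Csf1, Flt3l, Cd209d, Id2 and Mmp9 were not). Without any other library 5 to 10 were still called, the fewest without Thy-Tet1+/+ 2.

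Among ligands, the growth factor Csf1, which sustains macrophages, measured 8.90, 20.1 and 16.3 CPM in Thy-Tet1+/+ 1, 2 and 3 and 23.8, 23.3 and 28.1 CPM in the labelled libraries (log2 fold change 0.72, SE 0.29). Flt3l, the ligand of Flt3, measured 4.75, 6.58 and 4.05 CPM and then 8.01, 7.88 and 15.8 CPM (1.04, SE 0.36), and its log2 fold change was 0.62 without labelled Thy-Tet1-/- 3, which was the highest library, and 0.58 without both libraries with thymocyte genes. Csf1 was at 0.62 and 0.37 in these fits. Ccl24, the eosinophil-attracting chemokine eotaxin-2, measured 0.593, 0.695 and 0.222 CPM and then 1.58, 1.72 and 1.73 CPM (1.74, SE 0.50). The groups did not overlap in any of the 3. Ccl24 rested on few counts, 5, 13 and 4 in Thy-Tet1+/+ 1, 2 and 3 and 29, 29 and 34 in the labelled libraries. The other ligand of Csf1r, Il34, was at 38.7 ± 22.5 and 37.1 ± 5.79 CPM (log2 fold change -0.07), Cxcl12, a stromal chemokine, at 115 ± 26.6 and 101 ± 16.4 CPM (-0.19), Cx3cl1, the ligand of Cx3cr1, at 30.0 ± 15.0 and 31.2 ± 5.25 CPM (0.05), and Cxcl16, a membrane-bound chemokine, at 31.4 ± 14 and 23.9 ± 6.58 CPM (-0.40, SD, n = 3 each).

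Among phagocytic receptors, 3 of the 4 further C-type lectins of the Cd209 family were called higher, and Cd209b, with 4 to 7 counts in the Thy-Tet1+/+ libraries and 5 to 18 in the labelled ones, was not tested. Cd209f measured 0.593, 1.5 and 1.89 CPM in the Thy-Tet1+/+ libraries and 3.16, 4.44 and 2.79 CPM in the labelled ones (log2 fold change 1.35, SE 0.47). Cd209d had 2, 6 and 7 counts and then 29, 12 and 29 counts (1.93, SE 0.51), and Cd209g 1, 7 and 11 counts and then 22, 24 and 24 counts (1.69, SE 0.55). Each was without overlap between the groups, at levels where Thy-Tet1+/+ 1 was within the 3-count limit for Cd209d and Cd209g, and the family's similar sequences make the assignment of reads less certain. Mertk, a receptor for dying cells, measured 27.4, 15.8 and 20.1 CPM and then 33.3, 32.9 and 32.9 CPM (0.65, SE 0.20), while its bridging ligand Gas6 was at 133 ± 26.9 and 129 ± 23.3 CPM (-0.05, SD, n = 3 each). The lower genes of this list were Fcgr4, an activating Fc receptor, with 0.949, 2.41 and 1.66 CPM and then 0.708, 0.237 and 0.305 CPM (-2.01, SE 0.59), and C5ar1, the receptor for the complement fragment C5a, with 3.08, 8.24 and 5.99 CPM and then 2.51, 3.5 and 1.68 CPM (-1.18, SE 0.46). Fcgr4 had only 8, 45 and 30 counts and then 13, 4 and 6, with labelled Thy-Tet1-/- 2 close to the 3-count limit. Complement C3 and C1s1 were at 182 ± 75.5 and 218 ± 16.1 CPM (0.27) and at 50.3 ± 19.1 and 69.8 ± 4.62 CPM (0.47, SD, n = 3 each), neither called.

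Cd36, a fatty acid and scavenger receptor, and Pparg, a nuclear receptor of lipid metabolism, were called higher and are also strongly expressed by adipocytes. Cd36 measured 93.1, 36.7 and 44.6 CPM in the Thy-Tet1+/+ libraries and 237, 147 and 65.8 CPM in the labelled ones (log2 fold change 1.37, SE 0.53), and Pparg 10.8, 4.06 and 4.72 CPM and then 37.0, 18 and 6.96 CPM (1.69, SE 0.65). The 7 adipocyte markers (Adipoq, Plin1, Lep, Cidec, Cfd, Plin4 and Fabp4) summed to 567, 302 and 181 CPM and then to 1690, 877 and 403 CPM, in the same order among the labelled libraries, none at 0. With an adipocyte score as covariate the log2 fold changes were 0.31 for Cd36 and 0.28 for Pparg, and neither was called. The same covariate also took the call from Adgre1 (-0.79) and Lyve1 (1.15). The part of adipocytes in these results was not tested.

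Of the other transcription factors, Klf4, a zinc finger factor of monocytes and epithelia, was called lower, with 35.4, 64.0 and 49.2 CPM and then 26.5, 31.2 and 30.8 CPM (log2 fold change -0.75, SE 0.22). Id2, an inhibitor of basic helix-loop-helix factors required for some dendritic cells, was called higher, with 15.9, 18.9 and 30.0 CPM and then 40.7, 35.8 and 31.9 CPM (0.74, SE 0.25). Both were without overlap. Maf, a factor of resident macrophages, was at 53.8 ± 12.3 and 63.7 ± 1.53 CPM (0.25, SD, n = 3 each). Mmp9, a gelatinase of neutrophils and macrophages, was called higher from 0.949, 0.642 and 1.11 CPM to 1.31, 2.19 and 2.64 CPM (1.18, SE 0.44).

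None of the 26 tested signalling genes of phagocytes was called by edgeR. Their log2 fold changes ran from -1.01 (Cybb) to 1.52 (Lcp2), and 7 of them lay beyond the fold limit, 5 higher and 2 lower, without reaching the p limit. Among the most abundant, Lcp1, an actin-bundling protein of leukocytes, was at 127 ± 17.7 and 112 ± 12.9 CPM (log2 fold change -0.18), Cyba, a subunit of the phagocyte oxidase, at 109 ± 16.0 and 85.3 ± 13.6 CPM (-0.35), Itga4, an integrin, at 90.3 ± 45.5 and 71.6 ± 6.75 CPM (-0.34), and the kinase Lyn at 49.4 ± 18.6 and 36.6 ± 1.91 CPM (-0.44, SD, n = 3 each). Several of these are expressed by other cells of the gland as well.

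**Figure D5:**
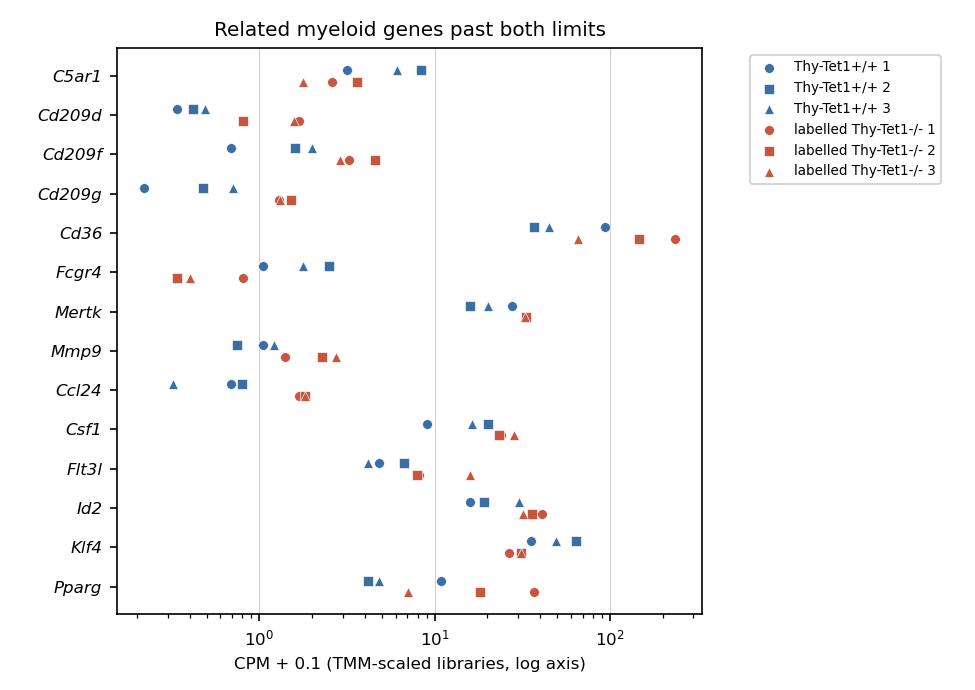
Level of the 14 called related genes in each library, in CPM with a small offset on a log axis (blue, Thy-Tet1+/+; red, labelled Thy-Tet1-/-; symbols, library number). Red symbols lie to the right of blue for Csf1, Flt3l, Ccl24, Mertk, Id2, Mmp9 and the Cd209 genes and to the left for Fcgr4 and Klf4, with overlap for C5ar1, Cd36 and Pparg.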

How the data were processed

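Gene counts, whole numbers that the authors deposited without normalization, were used for 3 Thy-Tet1+/+ and 3 labelled Thy-Tet1-/- thyroid libraries. The submitters' notes name the build mm10, and the aligner and counter are not given in the sources used here. For 27 symbols that a spreadsheet had turned into dates, the symbol was restored. Genes kept by filterByExpr (14143) were fitted with edgeR 4.0.16 (R 4.3.3; TMM, glmQLFit, glmQLFTest) with no covariate, after a test on simulated data. Adjusted p-values (Benjamini-Hochberg) cover all tested genes. DESeq2 1.42.0, limma 3.58.1, other scalings, filters and covariates, a replicate block and libraries left out were alternatives, 16 planned and 3 added after seeing the data. The members and gene lists were chosen with earlier results of these data known. Genes named were all members, called genes of the related lists and the 4 most abundant per list. Exon lengths and positions came from GENCODE M21 and promoters from RefSeq (GRCm38.p6). A floor of 3 counts per library was taken as the limit of detection, which covers counting error only. Some genes that this rule names are not reported here.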

Additional observations from a re-analysis of the deposited data

How the results depend on the processing

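The count of called members (3 by the fit reported) was 8 with libraries scaled to epithelial genes, 6 with DESeq2, 5 with a skeletal muscle score and 1 with an adipocyte score as covariate, 14 without both libraries with thymocyte genes, 0 with libraries scaled to the 10 macrophage markers by edgeR (0 with an unadjusted p under 0.05), and 1 to 11 with a library left out. Of the related genes (14), 8 were called with at least 10 counts in every library, 9 with the adipocyte score, 21 with epithelial scaling, 6 with macrophage scaling and 8 to 17 with a library left out (8 without labelled Thy-Tet1-/- 1 or 2). Of all tested genes (1301), 3327 were called with epithelial scaling, 1419 with DESeq2, 1065 with the muscle score, 1581 with the adipocyte score, 1503 without both libraries, 217 with macrophage scaling and 1709 with library totals. The share called higher was 60.2% as reported, 86.1% with library totals, 97.4% with epithelial scaling and 89.4% with macrophage scaling, which moved the median log2 fold change of all genes to 0.19, 0.44 and 0.12. The 10 macrophage markers used for scaling are themselves members, so that this scaling draws their own differences toward 0 by construction. Epithelial scaling used 10 genes (Epcam, Cdh1, Krt7, Krt8, Krt18, Krt19, Cldn3, Cldn4, Cldn7 and Esrp1). They summed to 2104, 2960 and 2286 CPM in Thy-Tet1+/+ 1, 2 and 3 and to 1625, 1709 and 1732 CPM in the labelled libraries. Being lower in every labelled library, they raise the log2 fold changes of other genes by construction. The summed level of the members differed by -0.09 on the log2 scale, and by 0.10 with library totals.

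Same-numbered libraries did not deviate together (r = -0.17, -0.37 and -0.19 for numbers 1, 2 and 3), so the numbers were not taken to pair the mice. With a replicate block 3 members (Ccr2, Lyve1 and S100a9), 12 related genes and 1145 genes in all were called, and the log2 fold changes of Ptprc (-0.32), Cd68 (0.059), Lyz2 (0.028), Trem2 (0.14) and Itgax (-0.22) changed sign. Adgre1 was at -1.16 and not called.

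Other changes of sign, none of them called in the fit reported and with the cause not tested, were these. Library totals gave Cd68 0.080 and Trem2 0.098. Epithelial scaling gave Laptm5 0.27, Cd68 0.44, Csf1r 0.11, Cd14 0.36, Ly86 0.049, Lyz2 0.32, C1qa 0.067, C1qb 0.085, C1qc 0.083, Fcgr1 0.24, Fcgr3 0.098, Trem2 0.48 and Itgam 0.080. Limma-voom gave Ptprc -0.0079, Lyz2 0.017 and Itgax -0.11. The muscle score gave Ptprc -1.08, Cd53 -0.46, Spi1 -0.17, Mrc1 -0.089, Timd4 -0.25, Itgax -0.70 and Flt3 -0.10. The adipocyte score gave Laptm5 0.29, Cd68 0.50, Lyz2 0.54, C1qa 0.048, C1qb 0.15, C1qc 0.079, Fcer1g 0.17, Trem2 0.48, Itgam 0.28 and S100a8 0.73. Without both libraries with thymocyte genes the values were Ptprc -1.20, Cd53 -0.87, Spi1 -0.21, Mrc1 -0.19, Timd4 -0.40, Itgax -1.07 and Flt3 -0.34, and with a thymocyte score Ptprc -0.38, Cd53 -0.0076 and Itgax -0.41. Macrophage scaling gave Laptm5 0.037, Cd68 0.44, Cd14 0.38, Lyz2 0.38, C1qa 0.066, C1qb 0.20, C1qc 0.12, Tyrobp 0.038, Fcgr1 0.11, Fcgr3 0.21, Trem2 0.52 and Itgam 0.19.

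With a library left out, the log2 fold change ran from -1.34 to 1.24 for Ptprc, -0.48 to 0.90 for Cd53, -0.96 to 0.19 for Laptm5, -0.47 to 0.46 for Cd68, -0.62 to 0.094 for Csf1r, -0.56 to 0.52 for Cd14, -0.70 to 0.34 for Lyz2, -0.86 to 0.042 for C1qa, -0.95 to 0.22 for C1qb, -0.88 to 0.095 for C1qc, -1.07 to 0.085 for Tyrobp, -0.49 to 0.20 for Fcgr1, -0.91 to 0.13 for Fcgr3, -0.45 to 0.71 for Trem2, -0.15 to 0.52 for Mrc1, -0.24 to 1.99 for Timd4, -0.93 to 0.17 for Itgam, -0.99 to 0.66 for Itgax and -0.17 to 0.77 for Flt3. Adgre1 was called in 7 of 19 alternatives, Lyve1 in 13 and Ccr2 in 17, with no change of sign. Low counts limit S100a8, S100a9, Trem2, Timd4 and Marco most, and Thy-Tet1+/+ 1 had the fewest counts.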

Other observations

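Marker genes of mast cells, conventional dendritic cells and neutrophils were measured as well. The 6 mast cell genes (Cpa3, Mcpt4, Cma1, Tpsb2, Kit and Ms4a2) summed to 81.2, 77.8 and 47.1 CPM in Thy-Tet1+/+ 1, 2 and 3 and to 64.7, 68.0 and 59.6 CPM in the libraries labelled Thy-Tet1-/- 1, 2 and 3. Kit, the stem cell factor receptor, made up most of this sum at 68.0 ± 18.7 and 62.5 ± 4.98 CPM (SD, n = 3 each). In each library 1 or 2 of the 6 genes were at 0. Clec9a and Xcr1, receptors of conventional dendritic cells that take up dead cells, were at 2.35 ± 0.940 and 2.86 ± 0.890 CPM and at 1.27 ± 0.510 and 1.98 ± 0.580 CPM (SD, n = 3 each), with log2 fold changes of 0.29 and 0.61, neither called. The 6 neutrophil genes (S100a8, S100a9, Retnlg, Csf3r, Cxcr2 and Ngp) were scarce, with up to 4 of them at 0 in a library. They summed to 0.593, 7.06 and 5.49 CPM in the Thy-Tet1+/+ libraries and to 1.31, 2.78 and 3.46 CPM in the labelled ones. Ltf, the lactoferrin of neutrophils and of glandular epithelium, was at 52.0 ± 41.3 and 52.9 ± 34.1 CPM (log2 fold change 0.03, SD, n = 3 each).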
